A study of Mus musculus with 778 samples.

Results

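Oocytes of the mouse express a group of NLRP genes of which close copies lie on chromosome 7, and the 10 described here are *Nlrp2*, *Nlrp4a*, *Nlrp4b*, *Nlrp4c*, *Nlrp4e*, *Nlrp4f*, *Nlrp9a*, *Nlrp9b*, *Nlrp9c* and *Nlrp14*. They were chosen by name, and all 10 were found among the 23201 genes of the count table. Single oocytes were measured by RNA-seq with unique molecular identifiers (UMIs, random tags by which amplified copies of a molecule are counted once). The table held 223 cells from 4 libraries. All oocytes were picked by hand after washing from ovaries of wild type female ICR mice, an outbred strain. Non-growing oocytes (NGO, under 20 μm in diameter, 46 cells) came from mice aged 3 to 4 days. Growing oocytes of 30 to 45 μm (GO1, 51 cells), 50 to 55 μm (GO2, 26 cells) and 60 to 65 μm (GO3, 44 cells) and fully-grown oocytes above 70 μm (FGO, 56 cells) came from mice aged 3 to 4 weeks, so that the growth stage and the age of the mouse cannot be told apart in any comparison with NGO.

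NLRP proteins carry a pyrin domain, a nucleotide-binding domain and leucine-rich repeats. Some of them build inflammasomes in immune cells, whereas a second group, to which these genes belong, is transcribed mostly in oocytes and leaves its products to the early embryo. NLRP2 and NLRP5 belong to or bind the subcortical maternal complex, a store of maternal proteins under the egg membrane, NLRP14 binds UHRF1, a reader of methylated DNA, human NLRP4 acts on the kinase TBK1, and NLRP9B senses double-stranded RNA with the helicase DHX9 in the gut.

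Levels are UMIs of a gene per 1000000 UMIs of the stage (CPM), a share of the messages counted and no measure of the RNA content of an oocyte. The table names the stage of a cell and not its library, so each stage was 1 pooled sample with no replicate check, no test between stages was possible, and the 95% intervals given (exact Poisson for a level, from the exact binomial split for a fold) cover counting error only. Stage totals ranged from 24976634 UMIs in GO2 to 64311908 at FGO. In GO1 the 10 deepest of the 51 cells held 80.4% of the UMIs and in GO2 73.2%, against 42.6% to 49.7% elsewhere, so the average of the single cells' CPM (the mean over cells) is given where it changes a call or moves a fold from NGO by more than 1.5 times. All 8 oocyte markers listed (*Zp1*, *Zp2*, *Zp3*, *Gdf9*, *Bmp15*, *Ddx4*, *Dppa3* and *Kit*) were above 10 CPM in every stage. The 8 granulosa cell markers together made up 14.01 CPM at NGO, 43.06 at GO1, 35.55 at GO2, 35.09 at GO3 and 19.996 at FGO, with *Cyp19a1* the highest in GO1 at 16.3 CPM and the defining *Amh* and *Foxl2* at 0 to 0.233 CPM in all stages. Stromal and theca markers summed to 1.05 to 8.65 CPM, macrophage markers to 1.68 to 5.04 CPM, and the haemoglobin genes were at 0 UMIs. The granulosa sum thus moved with the higher level of some members from NGO to GO1, and its part in that result was not tested.

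All members but 1 sit on chromosome 7, with *Nlrp4f* on chromosome 13 (coordinates in NCBIM37, the Ensembl name of mm9, GENCODE vM1 annotation). A group of them is next to each other: *Nlrp9c* (chr7:27107492-27188719, minus strand), *Nlrp4a* (chr7:27220132-27261161, plus strand) and *Nlrp9a* (chr7:27320042-27360634, plus strand) are separated by 31412 and 58880 bases. The others lie apart, at chr7:5250156-5302637 on the minus strand for *Nlrp2* and, on the plus strand, at chr7:5996763-6056751 for *Nlrp4c*, chr7:11273142-11315517 for *Nlrp4b*, chr7:20593372-20658655 for *Nlrp9b*, chr7:24086294-24147289 for *Nlrp4e* and chr7:114310504-114341616 for *Nlrp14*. *Nlrp4f* lies at chr13:65278419-65307276 on the minus strand. The predicted proteins of the 5 Nlrp4 genes were 59.4% to 89.2% identical to each other (10 pairs, median 69.2%), with *Nlrp4c* and *Nlrp4e* the closest. The 3 Nlrp9 proteins were 71.2% to 78.2% identical, whereas pairs from different subfamilies reached 27.005% to 36.22% (32 pairs).

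The stretches just before the transcription start are shown for the 5 members whose upstream bases are the most alike, since within each set the genes differed in their levels at the NGO stage or in their direction afterwards. RefSeq promoter windows (GRCm38.p6, a later build than that of the counts) matched 9 of the 10 members, all but *Nlrp14*, with 11 windows in all. The 250 bases before the start are printed 5′ to 3′ on the strand of the gene, with E-boxes (CANNTG, the element bound by basic helix-loop-helix factors such as FIGLA, searched on both strands) in capitals. The windows are chr7:26435364-26435613 (plus) for *Nlrp4a*, chr7:10687543-10687792 (plus) for *Nlrp4b*, chr7:6044911-6045160 (plus) for *Nlrp4c*, chr7:26534773-26535022 (plus) for *Nlrp9a* and chr7:26403701-26403950 (minus) for *Nlrp9c*.
Nlrp4a: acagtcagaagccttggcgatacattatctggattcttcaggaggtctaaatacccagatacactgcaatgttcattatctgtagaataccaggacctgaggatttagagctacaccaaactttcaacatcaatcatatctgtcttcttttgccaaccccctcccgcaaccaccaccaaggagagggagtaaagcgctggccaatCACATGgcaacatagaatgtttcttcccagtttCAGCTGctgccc
Nlrp4b: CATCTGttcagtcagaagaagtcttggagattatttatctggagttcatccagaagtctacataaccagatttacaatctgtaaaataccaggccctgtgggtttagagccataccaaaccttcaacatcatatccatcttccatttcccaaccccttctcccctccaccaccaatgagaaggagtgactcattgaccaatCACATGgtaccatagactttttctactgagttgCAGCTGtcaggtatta
Nlrp4c: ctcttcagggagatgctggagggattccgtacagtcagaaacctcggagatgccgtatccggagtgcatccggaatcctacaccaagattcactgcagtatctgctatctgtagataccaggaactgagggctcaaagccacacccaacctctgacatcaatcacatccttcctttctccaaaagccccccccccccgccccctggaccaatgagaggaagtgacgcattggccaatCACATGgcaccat
Nlrp9a: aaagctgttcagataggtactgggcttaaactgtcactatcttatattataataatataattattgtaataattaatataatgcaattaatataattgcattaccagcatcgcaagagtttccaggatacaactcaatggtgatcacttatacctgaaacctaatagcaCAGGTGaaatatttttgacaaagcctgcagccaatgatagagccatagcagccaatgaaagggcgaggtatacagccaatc
Nlrp9c: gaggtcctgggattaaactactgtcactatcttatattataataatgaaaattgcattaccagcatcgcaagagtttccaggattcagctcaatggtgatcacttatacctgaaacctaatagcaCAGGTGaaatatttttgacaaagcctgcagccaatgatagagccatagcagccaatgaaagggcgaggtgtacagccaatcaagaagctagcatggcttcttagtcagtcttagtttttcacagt

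The *Nlrp4a*, *Nlrp4b* and *Nlrp4c* windows printed above all contained the 12 bases ccaatcacatgg, a CCAAT sequence followed by the E-box CACATG, starting 50, 54 and 18 bases before the annotated start, respectively. A further *Nlrp4a* window, chr7:26434863-26435112 (plus), did not contain them, and its only E-box was CAGCTG at 80 bases before the start. A further *Nlrp4b* window overlaps the printed one and contained them. The 12 bases were found as the longest run shared by the printed windows, a search that favours rare sequences. They occurred on either strand in 6 of 32851 promoter windows of the genome (0.018%), among them those of *Dcxr* and *Oscp1* beside the 3 members. The E-box CACATG by itself occurred in 12.3% of all windows. The *Nlrp4a* and *Nlrp4b* windows were 79.3% identical over 222 aligned bases, and those of *Nlrp4c* and *Nlrp4b* 79.7% over 207. The *Nlrp9a* and *Nlrp9c* windows were 92.6% identical over 190 aligned bases and shared an unbroken run of more than 100 bases with the E-box CAGGTG in it, a hexamer present in 17.2% of all windows. An E-box of any kind was found in 9 of the 11 member windows, against 66.2% of all windows. Of the motifs for homeobox factors, TAATTA was found in 1 of 11 windows against 4.84% of all, and TAATTG in 2 of 11 against 7.17%. These counts are too small to set against the shares of all windows. TATAAA was found in 1 of the 11 windows, that of *Nlrp9b*, and in 12.4% of all windows. A match in a window is a description of its letters and no evidence of binding.

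*Nlrp14* was by far the most abundant member. It stood at 4806 CPM at NGO (95% interval 4779 to 4833), 2122 at GO1 (2105 to 2140), 1574 at GO2 (1559 to 1590), 2211 at GO3 (2198 to 2224) and 3235 at FGO (3221 to 3249). It was thus highest before growth, lowest in GO2 and in between at the end of growth. Per kilobase of its longest annotated transcript, *Nlrp14* ranked 35th in NGO, 209th in GO2 and 74th in FGO among 18796 genes with a length. A UMI counts a molecule once, so this rank depends on the scaling by length. The level in GO1 was 2.26-fold below that in NGO (interval 2.24 to 2.29). By the mean over cells the values were 4550, 2749, 1363, 2051 and 2861 CPM, so that the difference was spread over both steps and the NGO to GO1 step no longer reached 2-fold, whereas the GO1 to GO2 step did. From GO2 to FGO each stage stood above the one before, by 1.40-fold and then 1.46-fold, below the 2-fold limit in each step.

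*Nlrp2*, which encodes a maternal-effect protein, was lowest before growth. It stood at 72.9 CPM at NGO (69.6 to 76.3), 235.1 at GO1 (229.3 to 240.96), 192.5 at GO2 (187.1 to 198.02), 297.6 at GO3 (292.8 to 302.4) and 307.3 at FGO (303.03 to 311.6). The later stages were all above NGO, GO3 and FGO stood close together at the top, and the mean over cells put GO3 first (270 CPM) and FGO second (253 CPM). Without the 10 deepest cells of each stage, GO1 stood at 131.6 CPM, below GO2 at 168.4 CPM. The order of GO1 and GO2 thus depended on the weight of the cells. The level in FGO was 4.22-fold that in NGO (4.02 to 4.42), the largest fold difference from NGO of this gene, and 6.53-fold in cells thinned to 20000 UMIs. The gene *Gm5065* overlaps the first part of *Nlrp2* on the opposite strand and stood at 71.4 CPM at NGO, 159.9 at GO1, 128.3 at GO2 and 141.6 at GO3, and within 3 CPM of the GO2 level at FGO. Whether strand was used in counting is not given in the sources used here, so the reads of both genes are uncertain where they overlap.

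Within the Nlrp4 subfamily, 1 gene supplied most of the UMIs and differed little between stages, 3 were higher from GO1 on, and 1 was lower. *Nlrp4f*, the member on chromosome 13, stood at 618.8 CPM at NGO (609.1 to 628.6), 648.00 at GO1 (638.4 to 657.7), 452.9 at GO2 (444.6 to 461.4), 607.4 at GO3 (600.6 to 614.3) and 640.9 at FGO (634.8 to 647.2). Its highest level was 1.43-fold its lowest, the narrowest range of the 10 genes, and in stage sums GO2 alone stood apart from the other stages. Scaled by TMM factors, that is by the bulk of the genes, NGO (546 CPM) lay nearer to GO2 (501 CPM) than to GO3 (633 CPM). *Nlrp4a* stood at 32.9 CPM at NGO (30.7 to 35.2), 144.4 at GO1 (139.8 to 148.98), 105.3 at GO2 (101.3 to 109.4), 143.8 at GO3 (140.4 to 147.1) and 119.3 at FGO (116.7 to 122.04). *Nlrp4b* stood at 56.2 CPM at NGO (53.3 to 59.2), 194.2 at GO1 (188.98 to 199.6), 114.3 at GO2 (110.2 to 118.6), 147.1 at GO3 (143.8 to 150.6) and 146.5 at FGO (143.6 to 149.5). The GO1 level was 4.39-fold (4.07 to 4.74) the NGO level for *Nlrp4a* and 3.45-fold (3.26 to 3.67) for *Nlrp4b*. *Nlrp4b* was highest in GO1, whereas the GO1 and GO3 levels of *Nlrp4a* overlapped, and GO3 was the higher with TMM factors (149.7 against 142.4 CPM) and with DESeq2 factors (145.9 against 141.99 CPM), both of which scale stages by the bulk of the genes instead of the total. *Nlrp4e* stood at 10.4 CPM at NGO (9.18 to 11.7), 75.7 at GO1 (72.4 to 79.1), 52.9 at GO2 (50.1 to 55.9), 62.6 at GO3 (60.5 to 64.9) and 54.9 at FGO (53.1 to 56.7). Its level in GO1 was 7.28-fold that in NGO (6.40 to 8.31), and 10.8-fold by the mean over cells, 12.9-fold without the 10 deepest cells of each stage and 13.98-fold in cells thinned to 20000 UMIs. The last value rests on few counts, since *Nlrp4e* averaged 0.130 UMIs per thinned NGO cell.

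*Nlrp4c*, the closest relative of *Nlrp4e* by protein sequence, went the other way. It stood at 22.98 CPM at NGO (21.1 to 24.9), 11.5 at GO1 (10.2 to 12.8), 7.61 at GO2 (6.56 to 8.77), 13.2 at GO3 (12.2 to 14.2) and 16.2 at FGO (15.2 to 17.2). In stage sums its order, NGO first and GO2 last, was that of *Nlrp14* at a far lower level. The difference from NGO to GO1 was 2.002-fold with an interval of 1.74 to 2.31, just at the limit, and without the 10 deepest cells of each stage NGO stood at 13.3 CPM, GO1 at 11.1 CPM and FGO first at 15.01 CPM. By the mean over cells *Nlrp4c* stood at 21.6 CPM at NGO, 14.9 at GO1 and 6.43 at GO2, so that the 2-fold limit was reached from GO1 to GO2 (2.31-fold) and not before. *Nlrp4c* and *Nlrp4e* crossed over: *Nlrp4c* made up 3.10% of the Nlrp4 UMIs in NGO (2.86% to 3.36%) and 1.07% at GO1 (0.953% to 1.19%), whereas *Nlrp4e* made up 1.40% (1.24% to 1.58%) and 7.05% (6.76% to 7.35%). The 12-base CCAAT and E-box stretch was present in the printed windows of *Nlrp4a*, *Nlrp4b* and *Nlrp4c*. Its part in their levels was not tested.

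**Figure D1:**
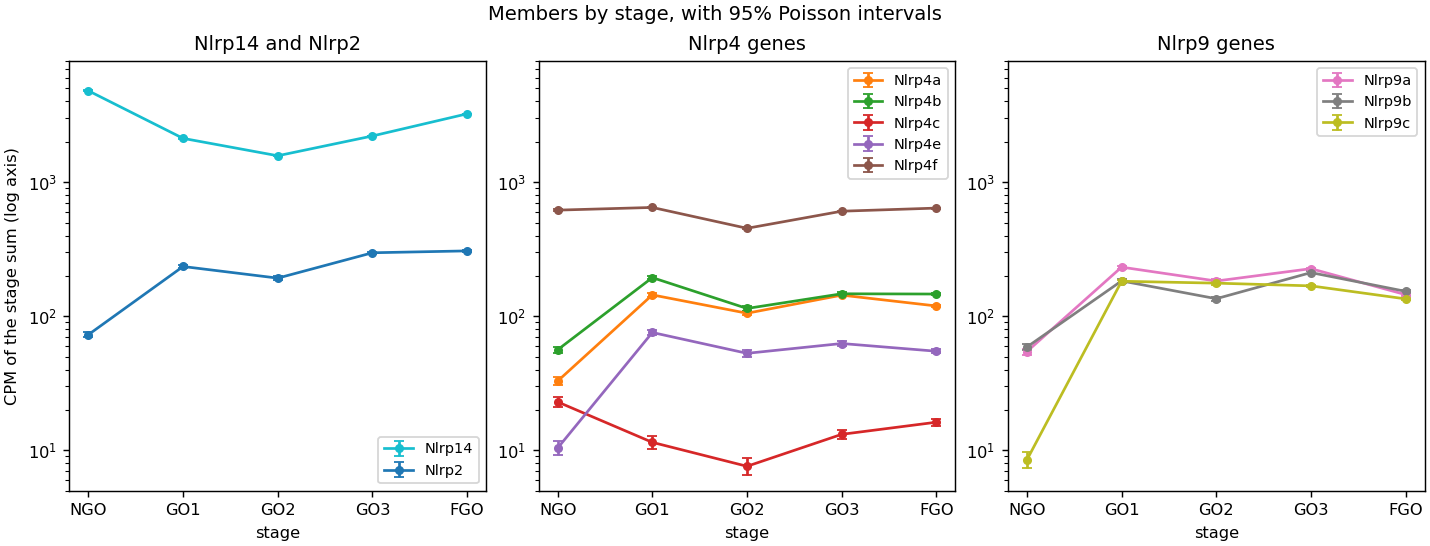
CPM of each member in the 5 stages (log axis), from UMIs summed over the cells of a stage, with bars for the 95% Poisson interval, which covers counting error only. *Nlrp14* and *Nlrp4c* were highest in NGO, *Nlrp4f* stayed between 453 and 648 CPM, and the other 7 genes were lowest in NGO.

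The 3 Nlrp9 genes were all higher in the growing stages, and they started from unequal levels. *Nlrp9a* stood at 54.5 CPM at NGO (51.7 to 57.5), 232.5 at GO1 (226.8 to 238.4), 183.2 at GO2 (177.9 to 188.6), 226.5 at GO3 (222.3 to 230.7) and 144.9 at FGO (141.98 to 147.9). *Nlrp9b*, the member known as a sensor of double-stranded RNA, stood at 58.97 CPM at NGO (56.01 to 62.05), 183.5 at GO1 (178.4 to 188.7), 135.2 at GO2 (130.6 to 139.8), 211.7 at GO3 (207.7 to 215.8) and 153.4 at FGO (150.4 to 156.4). *Nlrp9c* stood at 8.49 CPM at NGO (7.39 to 9.71), 182.4 at GO1 (177.4 to 187.6), 176.6 at GO2 (171.4 to 181.9), 168.5 at GO3 (164.9 to 172.2) and 134.8 at FGO (131.9 to 137.6). The GO1 level was 4.26-fold that of NGO for *Nlrp9a* (4.02 to 4.52), 3.11-fold for *Nlrp9b* (2.93 to 3.30) and 21.5-fold for *Nlrp9c* (18.7 to 24.8). The last of these was the widest difference between neighbouring stages among the 10 genes. The promoter windows of *Nlrp9a* and *Nlrp9c* share most of their bases, as printed above. These genes stood at 54.5 and 8.49 CPM at NGO, and at 232.5 and 182.4 CPM at GO1. Whether the windows bear on these levels was not tested. The fold of *Nlrp9b* depended on the weight of the cells and was 6.14 by the mean over cells, 7.07 without the 10 deepest cells of each stage and 6.39 in thinned cells. That of *Nlrp9c* was 32.9 in thinned cells, but there only 3 of 46 NGO cells had a UMI of it. Its mean was 0.130 UMIs per thinned NGO cell, so the 32.9 rests on few counts. The highest stage of *Nlrp9b* moved too, since by the mean over cells it was highest in GO1 (291 CPM) rather than in GO3 (218 CPM).

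The make-up of each subfamily differed most between NGO and GO1. *Nlrp4f* supplied 83.5% of the Nlrp4 UMIs in NGO (exact binomial interval 82.94% to 84.01%), 60.3% at GO1, 61.8% at GO2, 62.4% at GO3 and 65.5% at FGO. *Nlrp9c* supplied 6.96% of the Nlrp9 UMIs in NGO (6.09% to 7.92%), 30.5% at GO1, 35.7% at GO2, 27.8% at GO3 and 31.1% at FGO. The Nlrp4 genes together stood at 741 CPM at NGO, 1074 at GO1, 733 at GO2, 974 at GO3 and 978 at FGO, of which *Nlrp4f* made up the most. The Nlrp9 genes together stood at 121.99, 598.4, 494.9, 606.8 and 433.05 CPM, 4.91-fold higher in GO1 than in NGO (4.72 to 5.10).

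**Figure D2:**
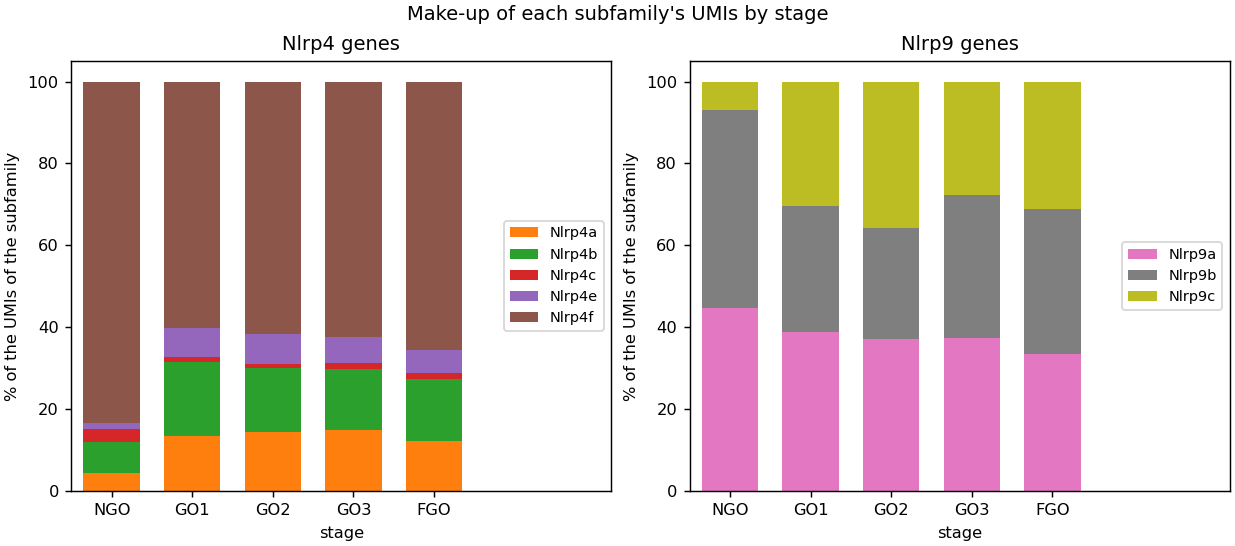
Share of each gene (% of UMIs) in the summed UMIs of the Nlrp4 genes (left) and the Nlrp9 genes (right) in each stage, as stacked bars. *Nlrp4f* is 83.5% of its subfamily at NGO and 60.3% at GO1, and *Nlrp9c* is 6.96% and 30.5%.

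Members were then set against all genes by a rule of size, in which a gene counts as different when its CPM differs at least 2-fold and reaches 10 in the higher stage. From NGO to GO1, 7 members were higher in GO1 (*Nlrp2*, *Nlrp4a*, *Nlrp4b*, *Nlrp4e*, *Nlrp9a*, *Nlrp9b* and *Nlrp9c*), where 20.6% of the 8527 genes that reached 10 CPM were higher. *Nlrp4c* and *Nlrp14* were lower, where 25.7% of genes were, and *Nlrp4f* did not pass. The median log2 difference of the members was 1.72 on the log2(CPM + 1) scale, and that of all genes was -0.14. Both lower calls hung on the scaling: *Nlrp14* passed with TMM or DESeq2 factors but not by the mean over cells, without the 10 deepest cells or in cells thinned to 20000 UMIs, and *Nlrp4c* passed in thinned cells alone. The 7 higher calls held under all 5 of these settings.

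In stage sums, no member passed the rule between neighbouring stages after GO1. From GO1 to GO2, 0.109% of genes were higher and 3.03% lower. This count depended on the weight of the cells, since by the mean over cells 3 members (*Nlrp4c*, *Nlrp9b* and *Nlrp14*) were lower in GO2, where 12.3% of genes were. In thinned cells *Nlrp4e* was lower as well, which makes 4 members, where 15.4% of genes were lower. From GO2 to GO3 the shares were 3.34% higher and 1.01% lower, and from GO3 to FGO 2.41% higher and 3.54% lower. In thinned cells *Nlrp4c* was higher in GO3 than in GO2, as 11.8% of genes were, and *Nlrp4e* was lower in FGO than in GO3, as 8.88% were. Between the ends of growth, NGO and FGO, the 7 genes that were higher in GO1 were also higher in FGO, against 11.3% of 8132 genes, and no member was lower, against 16%. Both comparisons have the NGO cells in common. *Nlrp14* stood 1.486-fold (1.475 to 1.496) and *Nlrp4c* 1.42-fold (1.28 to 1.57) lower in FGO than in NGO. Without the 10 deepest cells of each stage, *Nlrp4c* was instead higher in FGO (15.01 CPM) than in NGO (13.3 CPM).

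**Figure D3:**
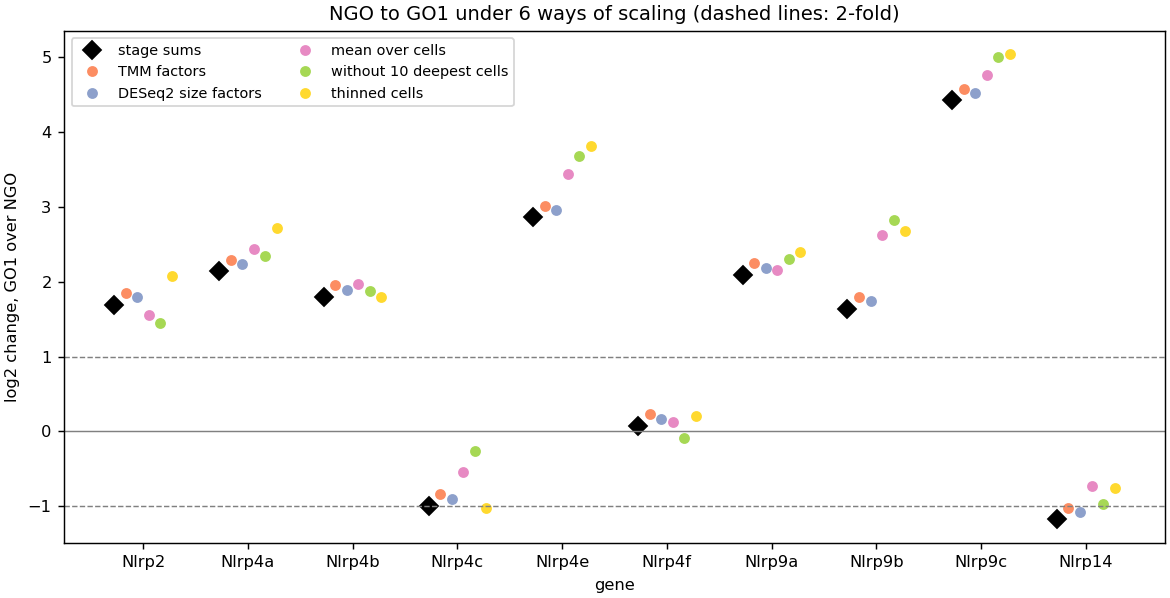
log2 of the GO1 over the NGO level of each member under 6 ways of scaling, where diamonds are the stage sums reported in the text and dashed lines mark 2-fold. The 7 higher genes stay above the upper line under every scaling, while *Nlrp4c* and *Nlrp14* straddle the lower line and *Nlrp4f* lies near 0.

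Single oocytes gave the same picture for most members. *Nlrp14* ranged from 2552 to 6365 CPM over the 46 NGO cells (median 4440) and from 870 to 10813 over the 51 GO1 cells (median 2186). In GO1, 33 cells lay below the lowest NGO cell and 4 above the highest, so the GO1 cells fell on both sides of the NGO range. In cells thinned to 20000 UMIs, the variance of the *Nlrp14* counts beyond that of counting, divided by the squared mean, was 0.51 in GO1, 0.24 in GO2 and 0.03 to 0.06 in the other stages. The same measure in GO1 was 0.59 for *Nlrp2* and 0.11 to 0.58 for the others, most of which averaged only a few UMIs per thinned cell. The range of *Nlrp14* at GO2 was 224 to 2534 CPM (median 1243), in GO3 1048 to 3068 (median 2039) and in FGO 1191 to 5072 (median 2877).

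*Nlrp9c* separated the cells of the first 2 stages best. It ranged from 0 to 53.4 CPM at NGO (median 3.51), from 0 to 1011 at GO1 (median 171), from 102.04 to 368 at GO2 (median 175), from 76.1 to 267 at GO3 (median 165) and from 11.7 to 291 at FGO (median 117.8). In GO1, 49 of 51 cells lay above every NGO cell, and 49 of 56 FGO cells did as well. For *Nlrp9a* 42 of 51 GO1 cells lay above all NGO cells, for *Nlrp4e* 39, for *Nlrp9b* 32, for *Nlrp4b* 24, for *Nlrp4a* 23 and for *Nlrp2* 13. *Nlrp4f* overlapped widely, from 335 to 1220 CPM at NGO (median 535) and from 301 to 1336 at GO1 (median 598).

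The low members were missed in part of the cells. *Nlrp4e* had a UMI in 23 of 46 NGO cells (50.0%, exact binomial interval 34.9% to 65.1%) and in 50 of 51 GO1 cells (98.04%, 89.55% to 99.95%). *Nlrp9c* had one in 69.6% of NGO cells (54.2% to 82.3%) and likewise in 50 of 51 GO1 cells. *Nlrp4c* had one in 86.96% of NGO cells (73.7% to 95.1%), 60.8% of GO1 cells (46.1% to 74.2%), 73.1% of GO2, 95.5% of GO3 and 92.9% of FGO cells. At the equal depth of 20000 UMIs the shares for *Nlrp4c* were 36.96% at NGO, 19.6% at GO1, 11.5% at GO2, 22.7% at GO3 and 30.4% at FGO, for *Nlrp4e* 10.9% at NGO and 72.5% at GO1, and for *Nlrp9c* 6.52% and 88.2%. GO1 cells were the shallowest (median 110146 UMIs, against 540432 at NGO), and at equal depth GO2 took the place of GO1 as the stage with the lowest share for *Nlrp4c*. Every cell of every stage had UMIs of *Nlrp14* and *Nlrp4f*. No somatic cells were in the table, so a share in cells that should lack these genes cannot be given.

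**Figure D4:**
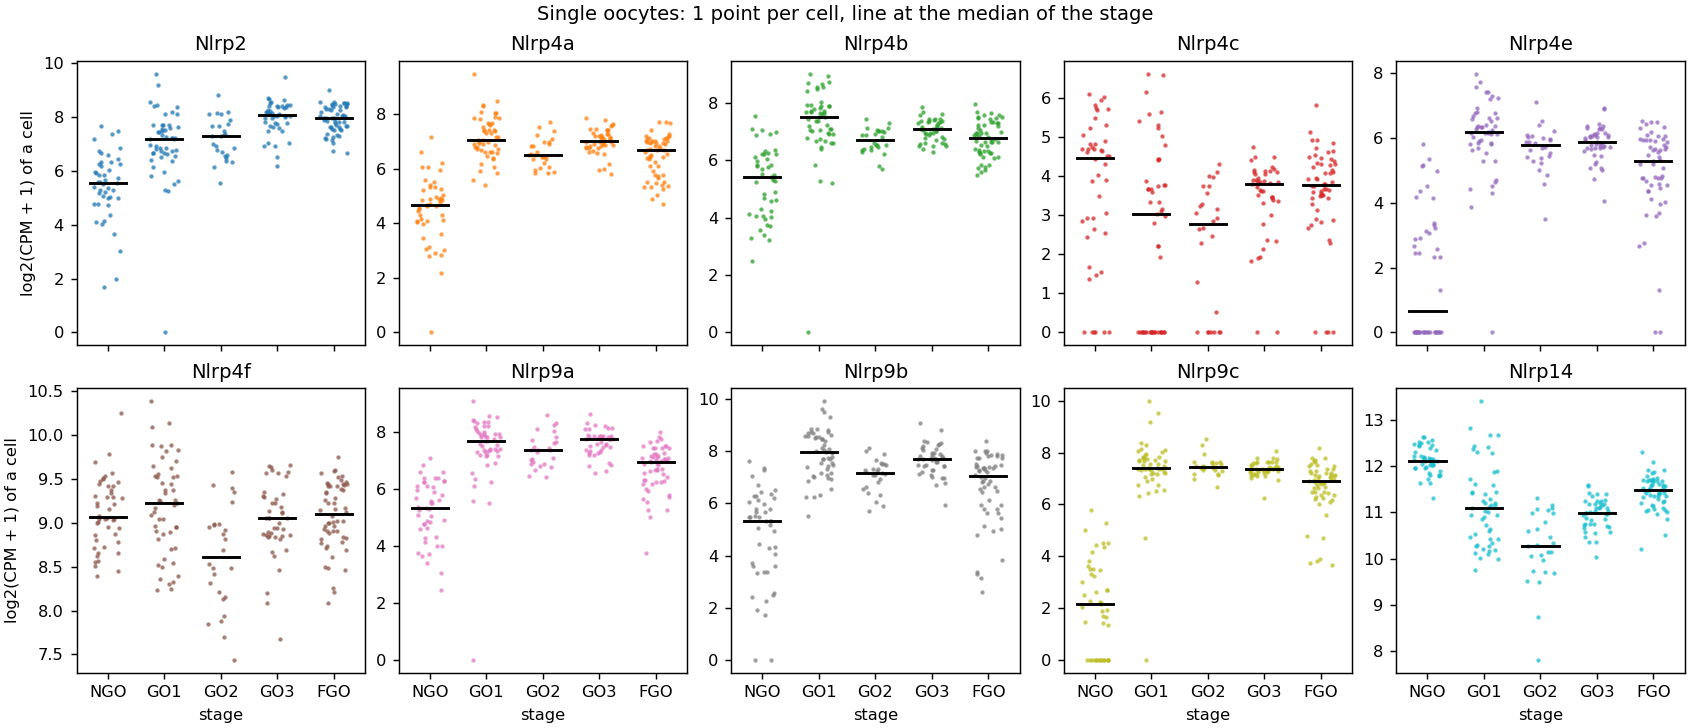
log2(CPM + 1) of each member in single oocytes by stage, with 1 point per cell and a line at the median. *Nlrp9c* and *Nlrp4e* are lowest in NGO, where their medians are well below those of GO1, and the *Nlrp14* points of GO1 spread from 870 to 10813 CPM around a median of 2186 CPM.

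Members varied together over the cells of a stage only weakly. Spearman's rho of the 45 pairs of members, in thinned counts, had a median of 0.09 at NGO (46 cells), 0.04 at GO1 (51 cells), 0.23 at GO2 (26 cells), 0.08 at GO3 (44 cells) and 0.13 at FGO (56 cells). The highest single value was 0.72, between *Nlrp4e* and *Nlrp4f* in GO2. In GO2, 40 of the 45 pairs were above 0. In all stages the library of a cell is unknown, and cells differed in depth before they were thinned to a common total. A correlation over cells does not separate these from a relation between genes. These values are given as a description.

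Reads that cannot be assigned to 1 of several near-identical genes could blur such differences, and the transcripts show how far that could go. Of all 50-base words in the longest transcript of a member, 10.4% also occurred in another gene for *Nlrp4e*, 10.04% for *Nlrp4c*, 6.56% for *Nlrp9a*, 6.22% for *Nlrp9b*, 4.99% for *Nlrp9c*, 1.85% for *Nlrp4a* and 0.0863% for *Nlrp4f*. *Nlrp2*, *Nlrp4b* and *Nlrp14* shared none. Only protein-coding transcripts were searched, so copies in pseudogenes or non-coding genes are left out. *Nlrp4c* and *Nlrp4e* shared most of theirs with each other, and the Nlrp9 genes theirs within the subfamily. At 100 bases the shares were at most 1.36% (*Nlrp9b*), and in the last 500 bases of the transcripts no word of 100 bases was shared. Words of 50 bases were shared there by *Nlrp4e* (9.98%, all with *Nlrp4c*) and *Nlrp4a* (3.10%, none with another member). The annotated *Nlrp4e* transcript has 2944 bases for 978 residues, so its last 500 bases are almost all coding sequence. Any untranslated end beyond the annotation was not searched, so sharing at the true end of *Nlrp4e* is not known. *Nlrp4c* and *Nlrp4e*, the pair with the most shared words, went in opposite directions from NGO to GO1. How the authors treated reads with several matches is not given in the sources used here, so the levels of *Nlrp4c*, *Nlrp4e* and the Nlrp9 genes carry an uncertainty that the counting intervals leave out.

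Of the 23 other NLR genes listed, 21 were in the table and 3 reached 10 CPM in any stage. *Nlrp5*, which encodes the core protein MATER of the subcortical maternal complex, stood at 2236 CPM at NGO, 1340 at GO1, 968 at GO2, 1764 at GO3 and 2937 at FGO, with the same low point in GO2 as *Nlrp14* and a higher end. *Naip1* stood at 8.85, 55.51, 53.05, 46.59 and 19.45 CPM in the same order. *Nlrc4*, which joins with NAIP proteins into an inflammasome that senses bacterial proteins, stood at 1.63, 24.4, 35.9, 15.7 and 2.27 CPM. Both were thus high in the growing stages, *Nlrc4* returned in FGO to near its NGO level, and both passed the rule of size from NGO to GO1. *Nlrp3*, the best known inflammasome sensor, was at 0 to 0.161 CPM.

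Of the 10 inflammasome partners listed, 2 reached 10 CPM. *Casp8*, a caspase of cell death and inflammation, stood at 25.2 CPM at NGO, 58.1 at GO1, 58.6 at GO2, 50.6 at GO3 and 32.1 at FGO and passed the rule from NGO to GO1. *Nek7*, a kinase that binds NLRP3, stood at 23.7, 13.3, 13.1, 14.5 and 17.1 CPM. The adaptor *Pycard* was at 0.187 to 0.754 CPM, *Casp1* at 0.0311 to 0.336 CPM, and *Il1b* at 0 UMIs in all stages, which with 3 UMIs as the limit of a 0 allows up to 0.119 CPM at NGO and 0.0466 CPM at FGO. These 3 encode the adaptor, the protease and a product of a classical inflammasome.

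The partners of the maternal complex and the known binding partners were mostly highest in NGO. Of the 6 genes of the complex, *Padi6* (7637 CPM at NGO and 1180 at GO1) and *Tle6* (4482 and 1477) were lower in GO1 by the rule. In that step 25.7% of all genes were lower, so the count is no result about the complex. *Nlrp5*, *Ooep*, *Khdc3* and *Zbed3* did not pass. *Uhrf1*, the partner of NLRP14, stood at 1169 CPM at NGO, 300 at GO1, 214 at GO2, 254 at GO3 and 396 at FGO. It was highest in NGO and lowest in GO2, as *Nlrp14* was, with a 3.89-fold difference between NGO and GO1. *Dhx9*, the partner of NLRP9B, stood at 21.7, 4.86, 4.24, 7.97 and 10.5 CPM, highest in NGO where *Nlrp9b* was lowest. *Tbk1*, the kinase acted on by NLRP4, stood at 15.7 to 27.8 CPM and did not pass the rule.

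The genes whose course over the 5 stages was most like that of the members were found by the root mean square difference of log2(CPM + 1), centred over the stages, among 8661 other genes that reached 10 CPM. For *Nlrp14* they were *Ccnf* (0.038), *Slc38a8* (0.040) and *Pdxp* (0.043), where the median gene differed by 0.558. For the summed Nlrp4 genes they were *Dopey1* (0.036), *Slc30a5* (0.037) and *Tmem68* (0.051), against a median of 0.439. For the summed Nlrp9 genes they were *Afg1l* (0.068), *A530021J07Rik* (0.084) and *Txndc2* (0.085), against 0.959. The likeness rests on 5 values per gene, and levels differed, as *Ccnf* ran from 13.3 to 41.1 CPM and *Txndc2* from 22.5 to 106.3 CPM.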

How the data were processed

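Expression was measured in single oocytes of 5 stages, in 4 RNA-seq libraries with UMIs. The authors sorted reads by barcode, aligned them (Tophat) to the mm9 transcriptome, removed duplicates by UMI, filtered cells and deposited counts of UMIs per gene and cell, which are not normalized. Cells were assigned to a stage by their names. All cells of a stage formed 1 pooled sample, and every value column belonged to a stage. No doublet caller was run, because oocytes were picked by hand. The iscCOOL-seq data were not analysed here.

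UMIs were summed per stage and divided by the stage total (CPM). The rule of size was 2-fold and 10 CPM in the higher stage. It was tried on simulated stage sums that held counting error only, with no variation between cells or libraries. That trial does not cover shifts from the weight of single cells. Alternatives were TMM (edgeR 4.0.16) and DESeq2 1.42.0 size factors, used for scaling only, the mean over cells, sums without the 10 deepest cells of a stage, cells thinned to 20000 UMIs, no filter on low counts and a 1.5-fold limit. Transcripts and positions are those of GENCODE vM1 (NCBIM37), and promoter windows those of RefSeq (GRCm38.p6). The members and gene lists were chosen with earlier results of these data known. Named genes are the members, genes of the pathway lists that reached 10 CPM, the 3 genes nearest in course and genes within 200 kb of a member. *Il1b*, *Pycard*, *Casp1*, *Nlrp3*, the cell type markers named and *Dcxr* and *Oscp1*, whose windows hold the shared bases, fall outside the rule and were named after their values were seen. Computation used R 4.3.3, Biopython 1.88 and Python 3.11.15 (scipy 1.17.1, pandas 2.3.3, numpy 2.4.6, matplotlib 3.10.9).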

Additional observations from a re-analysis of the deposited data

How the results depend on the processing

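The counts of members that were higher from NGO to GO1 and from NGO to FGO stayed at 7 under each of the 7 alternatives. The count of members lower from NGO to GO1 was 2 in stage sums, 1 with TMM factors (*Nlrp14*), 1 with DESeq2 size factors (*Nlrp14*), 1 in thinned cells (*Nlrp4c*), 0 by the mean over cells and 0 without the 10 deepest cells of each stage. The count lower from GO1 to GO2 was 0 in stage sums, 3 by the mean over cells (*Nlrp4c*, *Nlrp9b* and *Nlrp14*), 4 in thinned cells (the same 3 and *Nlrp4e*) and 2 at a 1.5-fold limit (*Nlrp4b* and *Nlrp4c*). From GO2 to GO3, 0 members were higher in stage sums, 1 in thinned cells (*Nlrp4c*) and 3 at 1.5-fold (*Nlrp2*, *Nlrp4c* and *Nlrp9b*). From GO3 to FGO, 0 were lower in stage sums, 1 in thinned cells (*Nlrp4e*) and 1 at 1.5-fold (*Nlrp9a*). The cause of these shifts was not tested. The share of all genes past a 1.5-fold limit was not computed, so the counts at that limit have no background beside them. Of the log2 changes of single members under other scalings, 58 stayed inside the counting interval and 192 left it, and 0 of those past the limit changed sign. Below the limit some signs did change. *Nlrp4c* went from -0.50 between NGO and FGO to 0.18 without the 10 deepest cells. The GO2 level of *Nlrp2* was 0.819-fold its GO1 level in stage sums and 1.28-fold without the 10 deepest cells. The stage in which a member was highest changed in 15 cases (*Nlrp2*, *Nlrp4a*, *Nlrp4c*, *Nlrp4f*, *Nlrp9a*, *Nlrp9b* and *Nlrp9c*) and stayed in 35, with TMM and DESeq2 factors added for this result after the data were seen. Shares of cells with a UMI left their interval after thinning in 26 cases and stayed in 24. The median log2 difference of all genes between NGO and GO1 was -0.14 in stage sums, 0.01 with TMM, -0.04 with DESeq2 factors, -0.36 by the mean over cells, -0.42 without the 10 deepest cells and -0.33 in thinned cells. No paired analysis was possible because each stage is 1 pooled sample. Depth limits the low members in thinned cells, where *Nlrp4c* averaged 0.115 UMIs per GO2 cell. There *Nlrp4e* and *Nlrp9c* each averaged 0.130 UMIs per NGO cell.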

Other observations

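Genes that lie beside the members did not share one course. Of 57 genes within 200 kb of a member, 7 reached 10 CPM in some stage. *Nlrp5* lies 23619 bases from *Nlrp4e* on the same strand, and stood at 2236 CPM at NGO and 1340 at GO1, whereas *Nlrp4e* stood at 10.4 and 75.7 CPM. *Ceacam20*, 16910 bases from *Nlrp9b*, stood at 3.25 CPM at NGO, 55.8 at GO1, 62.7 at GO2, 35.6 at GO3 and 7.01 at FGO. Its FGO level was thus well below those of the growing stages, though above that of NGO, while *Nlrp9b* was at 153.4 CPM at FGO. *Zfp787* and *Zfp444*, 26340 and 67077 bases from *Nlrp4c*, were both lower in GO1 than in NGO (11.2 and 4.52 CPM for *Zfp787*, 33.02 and 3.59 CPM for *Zfp444*), as *Nlrp4c* was. *Rfpl4*, 181643 bases from *Nlrp2*, stood at 366 CPM at NGO and 1021 at GO1, and *Pvr*, 86863 bases from *Nlrp9b*, at 9.60 and 1.20 CPM.

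Most of the listed transcription factors of early oocytes were lower in GO1, where the 7 members were higher. Of 7 listed, 5 were lower by the rule of size from NGO to GO1 and 0 higher, where 25.7% of all genes were lower and 20.6% higher. Of the 8 oocyte markers listed, 4 were lower and 1 was higher in the same step, and their summed level was 32873 CPM at NGO and 17014 at GO1. *Figla*, a basic helix-loop-helix factor that acts through E-boxes, stood at 597 CPM at NGO, 65.5 at GO1, 58.8 at GO2, 102.3 at GO3 and 170 at FGO. *Sohlh1* stood at 374, 0.336, 0.961, 2.35 and 19.2 CPM, *Sohlh2* at 54.2 CPM at NGO and 5.31 at GO1, *Lhx8* at 408 and 199, and *Tbpl2*, an oocyte form of the TATA-binding protein, at 177 and 14.5. *Nobox*, a homeobox factor needed for early follicles, stood at 1244, 897, 1186, 1745 and 1658 CPM and did not pass from NGO to GO1, and *Taf4b* stood at 6.13 to 13.5 CPM.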
